A study of Mus musculus with 8 samples.

Results

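The dystrophin glycoprotein complex was examined in freshly isolated mouse muscle stem cells through 8 of its genes, Dmd, Utrn, Dag1, Sgca, Sgcb, Sgcd, Dtna and Sspn. They were chosen by name, as genes of this complex, out of 57180 genes in the count table, and all 8 were found and measured in all 8 libraries. The 4 control libraries are labelled WT (replicates 2, 5, 7 and 8). The 4 RhoA het libraries (replicates 5, 6, 7 and 8) carry the genotype label RhoA knockdown, and the series text gives SC-RhoAfl/+, a floxed Rhoa allele over an intact allele in the stem cells. The Cre driver, any allele shared with the controls, and the age and sex of the mice are not given in the sources used here. The labels do not say whether the libraries of a group came from separate mice, so p-values measure only the spread between these samples, which may be technical.

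The complex links the actin cytoskeleton to the extracellular matrix across the plasma membrane. Dystrophin, or its paralogue utrophin, binds actin filaments inside the cell and beta-dystroglycan at the membrane, while alpha-dystroglycan binds laminin outside once it carries a specialised sugar chain. The sarcoglycans and sarcospan stabilise this axis, and dystrobrevin and the syntrophins form its signalling arm. In muscle fibres the complex protects the membrane during contraction, and in muscle stem cells dystrophin is known to take part in polarity and asymmetric division together with the kinase Mark2 and the polarity protein Pard3. RhoA, the gene targeted here, is a small GTPase that controls actin assembly and, through MRTF cofactors, the transcription factor SRF.

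Promoter windows are shown for the genes at the centre of the complex because the cells differ in Rhoa and SRF binds a defined element, the CArG box (CC, then 6 bases that are A or T, then GG). RefSeq (GRCm38.p6) listed windows for 7 of the 8 genes, 10 windows in all; the 250 bases before each start were searched on both strands for the CArG box, the E-box of muscle bHLH factors (CANNTG), the GC box (GGGCGG) and the MCAT element of TEAD factors (CATTCC). A CArG box was found in 1 of the 10 windows, the upstream window of Dmd, against 1.47% of all 32851 windows of this length. E-boxes were found in 7 of the 10 (66.2% of all windows), GC boxes in 5 (32.7%) and MCAT elements in 3 (12.6%). Both Dmd windows are printed because they start different transcripts, 2.1 Mb apart, that the gene counts pool, and those of Dag1 and Sgca because these are the most abundant members. Each is 5′ to 3′ on the gene's strand, and capitals mark matches to these motifs.
Dmd upstream window, chrX:82948620-82948869, plus strand: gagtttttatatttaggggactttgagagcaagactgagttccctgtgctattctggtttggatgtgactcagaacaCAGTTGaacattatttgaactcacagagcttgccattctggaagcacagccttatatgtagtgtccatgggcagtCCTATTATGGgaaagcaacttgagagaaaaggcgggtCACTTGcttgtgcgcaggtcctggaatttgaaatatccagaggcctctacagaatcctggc
Dmd downstream window, chrX:85048045-85048294, plus strand: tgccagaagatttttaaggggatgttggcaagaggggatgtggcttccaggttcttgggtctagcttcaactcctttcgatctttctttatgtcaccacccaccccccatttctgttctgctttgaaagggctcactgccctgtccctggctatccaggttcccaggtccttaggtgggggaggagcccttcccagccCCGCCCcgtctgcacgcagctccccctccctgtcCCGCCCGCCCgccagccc
Dag1, chr9:108263959-108264208, minus strand: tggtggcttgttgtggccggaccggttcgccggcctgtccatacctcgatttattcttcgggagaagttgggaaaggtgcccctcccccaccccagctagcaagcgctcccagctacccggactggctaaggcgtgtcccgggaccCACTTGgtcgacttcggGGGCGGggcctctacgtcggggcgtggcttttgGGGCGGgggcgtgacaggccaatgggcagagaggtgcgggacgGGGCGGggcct
Sgca, chr11:94976328-94976577, minus strand: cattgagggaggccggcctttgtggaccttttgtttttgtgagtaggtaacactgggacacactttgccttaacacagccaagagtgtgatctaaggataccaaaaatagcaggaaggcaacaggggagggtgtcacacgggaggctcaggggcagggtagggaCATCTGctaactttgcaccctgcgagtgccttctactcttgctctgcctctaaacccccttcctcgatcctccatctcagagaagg
The CArG box of the upstream Dmd window begins at position -98 from the start and stands between the 2 E-boxes. The downstream Dmd window has 60% G and C against 45.2% upstream, and holds 3 GC boxes and no CArG box or E-box. The Dag1 window has 67.6% G and C with 3 GC boxes and 1 E-box, and the Sgca window holds 1 E-box alone. These matches describe letters in a window and say nothing of binding.

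Facts of the whole series bear on what follows. Total assigned fragments ran from 19138763 to 25606342 per library. Markers of muscle stem cells were detected in full in every library (14 of 14 genes, 8577 to 14363 TPM in sum). The marker Sdc4 alone made up 4961 to 9376 TPM of these sums. Pax7, the factor that defines these cells, had 49.6, 71.2, 100.1 and 60.1 TPM in control replicates 2, 5, 7 and 8 and 46.6, 55.4, 56.5 and 46.9 TPM in RhoA het replicates 5, 6, 7 and 8. Its log2 fold change was -0.51 (unadjusted p 0.0173 and adjusted p 1 in edgeR), and its groups did not overlap on the CPM scale. Rhoa was at 134 ± 10.9 TPM in control and 116 ± 6.23 TPM in RhoA het (SD, n = 4 each; unadjusted p 0.0495 in edgeR), and the groups overlapped in TPM. Chromosome Y took 15179 fragments in control replicate 2 and 15137 in RhoA het replicate 6, and 218 to 677 in each other library. Both libraries numbered 5 stood apart by the proliferation marker Mki67, at 20.5 TPM in control and 13 TPM in RhoA het against at most 1.16 TPM elsewhere. RhoA het replicate 6 held 435 TPM of endothelial markers (10 of 10 genes detected in every library) against 41.9 to 119 TPM in the other 7.

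The transcripts of the complex spanned more than 3 orders of magnitude in TPM, a level scaled by exon length and to a common total. Over all 8 libraries the order by mean TPM was Dag1, Sgca, Sgcb, Sspn, Utrn, Dmd, Dtna and Sgcd. Dag1 averaged 13 times the next gene and its lowest library lay above the highest of any other member. Sgca was above Sgcb in all 8 libraries, although their ranges overlapped. Sgcb, Sspn, Utrn and Dmd formed a middle class with neighbouring means between 1.07 and 1.32 times apart and overlapping ranges. Sgcb was above Utrn and Dmd in every library, while its order with Sspn, and that among Sspn, Utrn and Dmd, changed between libraries. Dtna and Sgcd were lowest, 16.6 times or more under Dmd, and overlapped each other. RPKM on TMM-scaled library sizes gave the same order, but it uses the same counts and exon lengths, so it is no separate check.

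**Figure D1:**
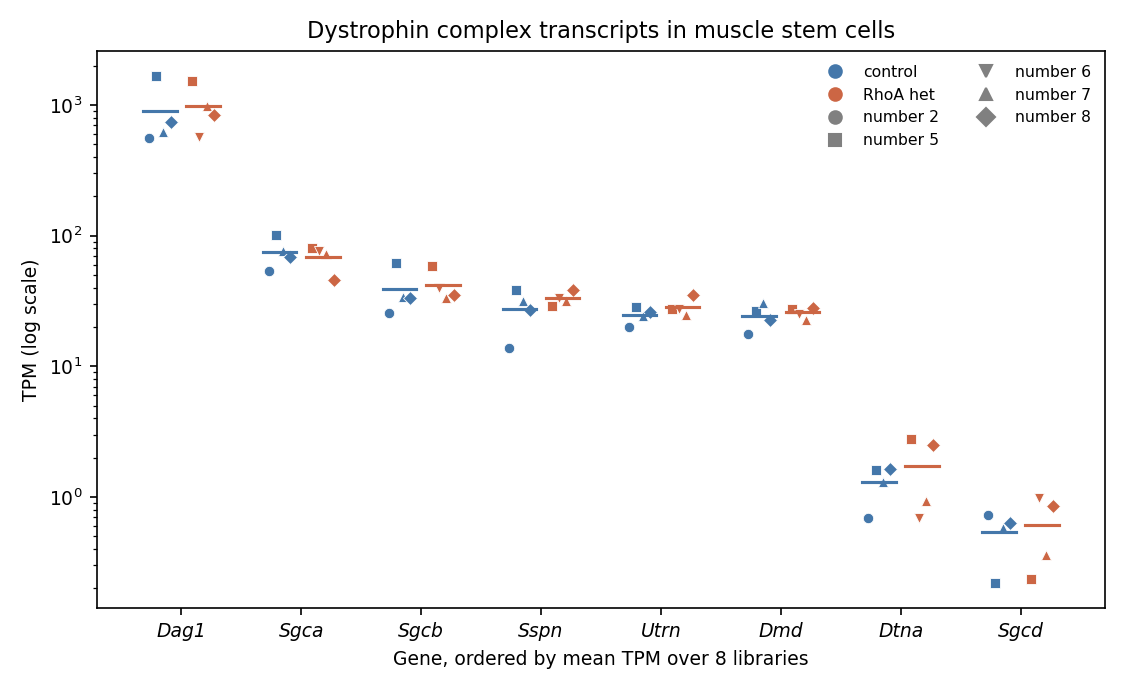
TPM (log axis) of the 8 dystrophin complex genes in each library, blue for control and orange for RhoA het, with a marker shape for each library number and a bar at each group's mean (n = 4). Dag1 lies between 556 and 1670 TPM, the middle class between 13.7 and 62.3 TPM, and the groups overlap for every gene.

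Dystrophin and utrophin, the cytoskeletal linkers, were present at similar levels. Dmd (ENSMUSG00000045103.20; mm39 chromosome X, 81992476 to 84249747, plus strand) had 17.8, 26.6, 30.3 and 22.5 TPM in control replicates 2, 5, 7 and 8. It had 27.7, 25.2, 22.7 and 27.8 TPM in RhoA het replicates 5, 6, 7 and 8. The lowest and the highest library were both controls, and the RhoA het values lay between them. Utrn (ENSMUSG00000019820.12; mm39 chromosome 10, 12257932 to 12745109, minus strand) had 20, 28.6, 24.3 and 26.2 TPM in control and 27.6, 27.7, 24.6 and 34.9 TPM in RhoA het, in the same order of replicates. Its highest value was RhoA het replicate 8 and its lowest control replicate 2. The ratio of Utrn to Dmd in TPM lay between 0.804 in control replicate 7 and 1.25 in RhoA het replicate 8. Utrn was above Dmd in 6 of 8 libraries. Both levels sum every transcript of the gene, short forms from internal promoters included.

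These linkers were also the steadiest members. The highest library exceeded the lowest by 1.33 times in CPM for Dmd and 1.44 times for Utrn (CPM, counts scaled to a common library total after TMM), and 93.3% and 85.6% of the 15660 genes tested had a wider range. Dmd is X-linked, and the libraries with many chromosome Y fragments, control replicate 2 and RhoA het replicate 6, had 164 and 195 CPM against 162 to 216 CPM in the other 6, so they were not set apart. Utrn was highest in RhoA het replicate 8 (180 CPM, against 125 to 154 CPM elsewhere), where mural markers (8 of 8 genes detected in every library) summed to 2335 TPM. In the other libraries these markers summed to 589 to 1369.5 TPM, and their part in the Utrn level was not tested.

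Dystroglycan, whose gene encodes both the laminin-binding alpha subunit and the transmembrane beta subunit, dominated the complex. Dag1 (ENSMUSG00000039952.16; mm39 chromosome 9, 108081833 to 108141157, minus strand) had 556, 1670, 619 and 744 TPM in control replicates 2, 5, 7 and 8. It had 1542, 572, 979 and 837 TPM in RhoA het replicates 5, 6, 7 and 8. Both libraries numbered 5 were high in either genotype and the other 6 lay together at 556 to 979 TPM. Dag1 stood above 98.9% of the genes tested by mean TPM and made up 73.7% to 87.2% of the summed TPM of the 8 genes. Without it, the other 7 genes summed to 133 to 259 TPM. The 5′ end of Dag1, its upper coordinate, lies 42.2 kb from the lower coordinate of Rhoa (mm39 chromosome 9, 108183328 to 108215133), the locus that was targeted. Of the 38 other tested genes within 500 kb of Rhoa, Dag1 included, 21 had a fold change above 0 and 17 below, with a median log2 fold change of 0.03, and 0 had an unadjusted p under 0.05 in edgeR.

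The sarcoglycans form a membrane subcomplex that stabilises the link between dystroglycan and dystrophin, and their levels differed widely. Alpha-sarcoglycan, a largely striated muscle form, was the most abundant: Sgca (ENSMUSG00000001508.16; mm39 chromosome 11, 94853617 to 94867153) had 54.1, 102, 76.3 and 69.2 TPM in control and 81.1, 76, 72.5 and 46.1 TPM in RhoA het. Control replicate 5 was the highest library and RhoA het replicate 8 the lowest. Beta-sarcoglycan, the core subunit, came next: Sgcb (ENSMUSG00000029156.12; mm39 chromosome 5, 73790092 to 73805133) had 25.5, 62.3, 33.7 and 33.5 TPM in control and 59, 39.7, 33.2 and 35.1 TPM in RhoA het. As with Dag1, both libraries numbered 5 were the highest. Delta-sarcoglycan, which pairs with the beta subunit, was close to the detection limit: Sgcd (ENSMUSG00000020354.16; mm39 chromosome 11, 46787080 to 47879796) was covered by 44, 11, 38 and 36 fragments in control and 12, 55, 20 and 41 in RhoA het, or 0.221 to 0.974 TPM. Its lowest libraries were those numbered 5, and counts this small carry a large counting error. Of the sarcoglycans that were not among the 8 genes, epsilon-sarcoglycan, a broadly expressed relative of the alpha form, was at 26.6 to 37.5 TPM (Sgce), and zeta-sarcoglycan had 0 fragments in every library (Sgcz).

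Sarcospan, a membrane protein that binds the sarcoglycans, and alpha-dystrobrevin, the cytoplasmic partner of dystrophin, completed the set. Sspn (ENSMUSG00000030255.14; mm39 chromosome 6, 145877367 to 145910949) had 13.7, 38.3, 31.7 and 27.1 TPM in control and 28.8, 33.6, 31.4 and 38.7 TPM in RhoA het. Control replicate 2 was below all other libraries, which lay between 27.1 and 38.7 TPM. Dtna (ENSMUSG00000024302.17; mm39 chromosome 18, 23548192 to 23792772) had 0.693, 1.61, 1.29 and 1.64 TPM in control and 2.78, 0.691, 0.925 and 2.49 TPM in RhoA het. The RhoA het libraries fell on both sides of the controls, with replicates 5 and 8 above every control. Its relative beta-dystrobrevin was higher in mean level in both groups, at 2.47 to 4.41 TPM (Dtnb). In RhoA het replicates 5 and 8, however, Dtnb was slightly below Dtna, at 2.58 and 2.47 TPM. Dtna and Sspn share 90 and 69 exon bases with other annotated genes (0.532% and 1.38% of their exon bases), and no exon base of the other 6 genes is shared.

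Dag1 and Sgcb were higher in the libraries numbered 5 than in all others, in both genotypes. Dag1 had 2967 CPM in control replicate 5 and 2819 CPM in RhoA het replicate 5 against 1180 to 1870 CPM elsewhere, 1.98 times as much on average. Sgcb had 70.5 and 68.7 CPM there against 40 to 52.3 CPM, 1.6 times as much. Sgcd had 0.511 and 0.563 CPM there against 0.897 to 2.61 CPM. Sgca had 49.4 CPM in control replicate 5 and 40.5 CPM in RhoA het replicate 5 against 24.1 to 42.9 CPM elsewhere. Dtna had 7.62 and 13.5 CPM there against 3.8 to 12.7 CPM. Dmd, Utrn and Sspn in these libraries lay inside the range of the other 6. The same libraries carried most Mki67 (above). The 10 fibro-adipogenic markers, all detected in every library, summed to 5558 and 4847 TPM there against 1539 to 2795 TPM elsewhere. That difference lay in the 2 collagen genes Col1a1 and Col3a1, at 4202 and 3312 TPM together against 559 to 1411 TPM. The other 8 markers summed to 1356 and 1535 TPM, inside the range of the other 6 libraries (939 to 2077 TPM). The part of these markers in the Dag1, Sgcb and Sgcd levels was not tested. In such bulk samples, more cells of a type and more RNA per cell cannot be told apart.

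**Figure D2:**
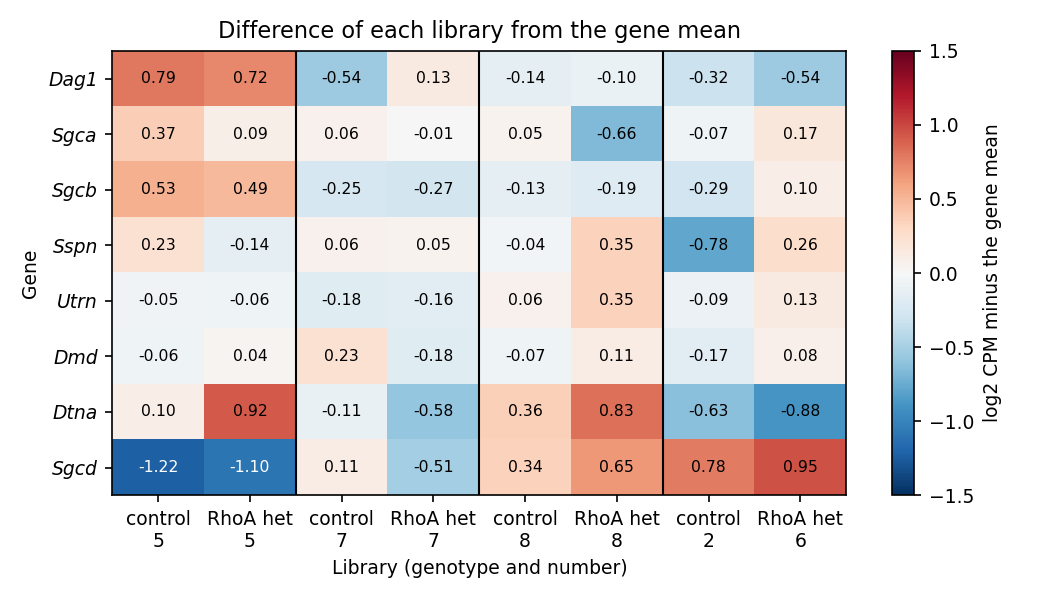
Difference of each library from the gene's mean over 8 libraries, in log2 CPM with a prior count of 2; rows are genes in order of level, columns are libraries with same-numbered ones side by side. Dag1 (0.79 and 0.72) and Sgcb (0.53 and 0.49) are high and Sgcd (-1.22 and -1.10) is low in both libraries numbered 5, while Dmd and Utrn stay within 0.35 of their means.

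Across the 8 libraries the members did not share a single profile. Of the 28 pairs of members, log2 CPM was most alike by Pearson's r for Dag1 and Sgcb (r 0.775, Spearman's rho 0.5). By rho it was most alike for Sgca and Sgcb (rho 0.786, r 0.54). It was most opposed, by either measure, for Dag1 and Sgcd (r -0.899, rho -0.738). Dmd and Utrn had r 0.287. These values describe 8 libraries that share genotype and number. Over the 6 libraries not numbered 5, a choice made after seeing the data, r was -0.428 for Dag1 and Sgcb, -0.587 for Dag1 and Sgcd and 0.296 for Dmd and Utrn. Among genes tested with a mean of at least 5 CPM, Dag1 was most like Kbtbd2, Sumf1 and Ssr3 (r 0.982, 0.981 and 0.977 over 8 libraries). Sgcb was most like Pmf1, Dmp1 and Pclaf (r 0.993, 0.986 and 0.982), and Pclaf, a factor of replicating cells, ran from 0.423 to 18.3 CPM. Dmd was most like 1110012L19Rik, Kdm4c and Chd6 (r 0.957, 0.927 and 0.92), and Utrn most like Ehbp1l1, Stard8 and Lxn (r 0.973, 0.957 and 0.955). For Sgca they were Abhd8, Slc38a4 and Fam53a (r 0.965, 0.96 and 0.959), and for Sspn Kidins220, Stx2 and Lrrc45 (r 0.98, 0.958 and 0.952). Dtna was most like Mfap3l, Igsf9b and Naa16 (r 0.982, 0.934 and 0.932), and Sgcd most like Irgm2 and Cystm1 (r 0.986 and 0.983). Each set comes from the top 3 of about 9746 candidate genes, so high values follow from the choice.

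RhoA het was then compared with control to ask whether the RhoA het genotype came with other levels of the complex. None of the 8 genes passed an adjusted p of 0.05 (edgeR quasi-likelihood test, Benjamini-Hochberg over all 15660 genes), as 0% of all genes did, and 0 of the 8 had an unadjusted p under 0.05, against 2.38% of all genes. In 0 of the 8 were the groups free of overlap in CPM, against 1.81% of all genes. The median log2 fold change of the 8 was 0.07, with 7 of 8 above 0, beside 0 over all genes tested, of which 7809 were above 0. The count above 0 was 6 of 8 without RhoA het replicate 6 and 3 of 8 in the paired fit described next. The DESeq2 Wald test also called 0 of the 8.

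The precision differed between members. Dmd averaged 183 ± 22.7 CPM over the controls and 187 ± 16.8 CPM over RhoA het (SD, n = 4 in either group). Its log2 fold change was 0.03 with a 95% confidence interval from -0.26 to 0.31 (SE 0.13; two-sided exact permutation p 0.829). Utrn had 135 ± 9.18 and 149.0 ± 23.5 CPM, a log2 fold change of 0.14 (interval -0.16 to 0.44; exact permutation p 0.343). These are the narrowest intervals of the set. Dag1 had 1766 ± 815 and 1868 ± 694 CPM, a log2 fold change of 0.08 with the wide interval of -0.68 to 0.84 (exact permutation p 0.771). Sgca was the only member with a value below 0, at -0.18 (interval -0.60 to 0.24; exact permutation p 0.486), from means of 41.2 ± 5.67 and 36.3 ± 8.42 CPM. Without RhoA het replicate 8 the Sgca value was -0.03, and without control replicate 5 it was -0.09. Sgcb had 0.06 (interval -0.45 to 0.57), Sspn 0.23 (-0.24 to 0.70), Dtna 0.32 (-0.64 to 1.27) and Sgcd 0.06 (-1.19 to 1.31). Single libraries moved these values. Sspn had 0.05 without control replicate 2. Dtna had 0.02 without RhoA het replicate 5, 0.08 without RhoA het replicate 8 and 0.56 without RhoA het replicate 6. Dag1 had 0.44 and Sgcb 0.28 without control replicate 5, and -0.19 and -0.12 without RhoA het replicate 5. Sgcd had 0.34 without control replicate 2 and -0.33 without RhoA het replicate 6. The smallest p this permutation test allows is 0.0286.

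**Figure D3:**
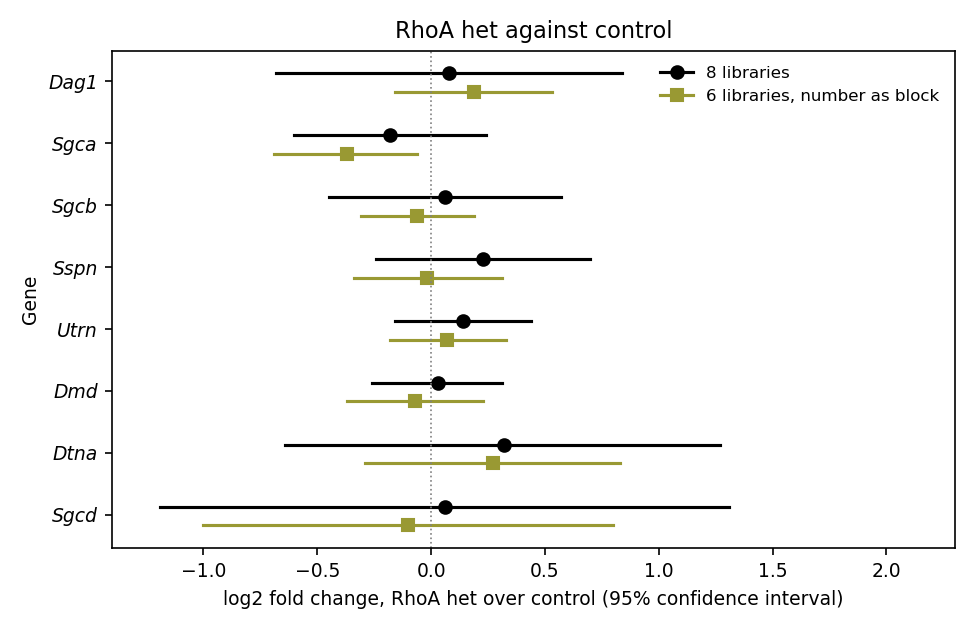
Log2 fold change of RhoA het over control with its 95% confidence interval for each gene, in black over 8 libraries and in olive over the 6 libraries numbered 5, 7 and 8 with the number as a block. All 8 black intervals contain 0; of the olive intervals only that of Sgca (-0.69 to -0.06) does not.

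When same-numbered libraries 5, 7 and 8 were compared within their 3 pairs (the replicate number as a block), again no member passed the threshold. Of 15714 genes 2 did (0.0127%). This paired fit leaves out control replicate 2 and RhoA het replicate 6, the libraries with many chromosome Y fragments and with 5 and 7 Xist fragments. Differences from the fit over 8 libraries therefore cannot be assigned to the pairing alone. Sgca had a log2 fold change of -0.37 (SE 0.15, edgeR unadjusted p 0.0252, adjusted p 0.85) and was the only member of 8 with an unadjusted p under 0.05. With the number as a random effect over all 8 libraries Sgca had -0.26 (unadjusted p 0.108 in limma), and over the same 6 libraries without pairing -0.35 (unadjusted p 0.148 in edgeR). In the paired fit 5.26% of all genes had an unadjusted p under 0.05 in edgeR, 2.28% with a lower value in RhoA het. Within pairs the Sgca differences in log2 CPM were -0.29, -0.07 and -0.71 for numbers 5, 7 and 8. Sgca and Sgcb were lower in RhoA het in 3 of 3 pairs, as were 12.5% of all genes (26.2% had 1 direction in all pairs), and the Sgcb differences were -0.04, -0.02 and -0.05. Myofibre markers moved with Sgca in this fit: their median log2 fold change over 16 genes was -1.01, with 2 genes past the threshold. That median was -1.06 over the same 6 libraries without pairing, but -0.08 over all 8 libraries (17 genes), and leaving out 1 library at a time it ran from -0.89 without RhoA het replicate 6 to 0.46 without control replicate 5. Their summed TPM ran from 206 to 1215 in control and from 168 to 984 in RhoA het, with 17 or 18 of 18 genes detected, Myh7 at 0 in control replicate 2 and Tnnc2 at 0 in RhoA het replicate 8. The lowest sum, 168 TPM, and the lowest Sgca level were both those of RhoA het replicate 8, and the highest of both those of control replicate 5. Of the 14 stem cell markers 0 passed in the paired fit, with a median of -0.08, and Pax7 and Chodl had an unadjusted p under 0.05. Pax7 had -0.65 (unadjusted p 0.000181 and adjusted p 0.143 in edgeR) and Chodl, a membrane lectin, -0.46 (unadjusted p 0.00366 and adjusted p 0.5 in edgeR). The part of fibre RNA and of stem cell RNA in the Sgca value was not tested. For Dmd the pair differences pointed in different directions (0.1, -0.41 and 0.18).

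The wider pathway was followed through lists of genes grouped by their role. Of 9 other subunits tested (11 listed), 0 passed, 7 had a fold change above 0 and 2 below (4 above 0 without RhoA het replicate 6), and the median was 0.09. The beta-syntrophins, adaptors that bind dystrobrevin and dystrophin, were at levels near those of Dmd: Sntb1 had 13.6 to 35.1 TPM and Sntb2 14.6 to 29.9 TPM. The log2 fold change of Sntb1 was 0.17, with an unadjusted p of 0.463 in edgeR. Sntg2, a gamma-syntrophin gene, had -0.37 (p 0.58 in edgeR). Nos1, the nitric oxide synthase that docks on the syntrophin arm, had 0.851 ± 0.243 TPM in the controls and 1.51 ± 0.671 TPM in RhoA het (SD over 4 libraries), with a log2 fold change of 0.74 (SE 0.39, p 0.0853 in edgeR). Its highest value, 2.52 TPM, was RhoA het replicate 6, and the groups overlapped.

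Of 16 glycosylation genes tested (18 listed), which build the laminin-binding sugar of alpha-dystroglycan, 0 passed, 8 were above 0 and 8 below, and the median was -0.01. Gmppb, which makes the mannose donor, had -0.44 (p 0.197 in edgeR) and Dpm3, a subunit of the enzyme that makes dolichol-phosphate mannose, -0.20 (p 0.243). B3galnt2, a glycosyltransferase of the core chain, had 0.14 (p 0.403 in edgeR) and was at 16.3 to 33.4 TPM, far under its substrate Dag1.

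Extracellular ligands had log2 fold changes of 0 to 1.07 in the 11 genes tested (12 listed), with a median of 0.18, and 0 passed. The count above 0 was 11 with TMM or total counts and 10 with DESeq2 or upper-quartile factors or the block. Lamb1, the laminin beta-1 chain, had the largest value: 9.19, 20.5, 12.2 and 18.1 TPM in control replicates 2, 5, 7 and 8, and 50.6, 16.4, 36 and 29.7 TPM in RhoA het replicates 5, 6, 7 and 8. All RhoA het libraries but replicate 6 lay above every control. Its log2 fold change was 1.07 (SE 0.30, unadjusted p 0.00529 and adjusted p 1 in edgeR; exact permutation p 0.0857), and 1.68% of all genes had an unadjusted p under 0.05 with a higher value in RhoA het. With the replicate block it was 1.15 (SE 0.17, adjusted p 0.0834 in edgeR). Lama2, the laminin alpha chain of muscle basement membrane that dystroglycan binds, had 46.6 ± 14.5 TPM in the controls and 59.4 ± 16.6 TPM in RhoA het (SD over 4 libraries), with a log2 fold change of 0.29 (p 0.159 in edgeR).

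**Figure D4:**
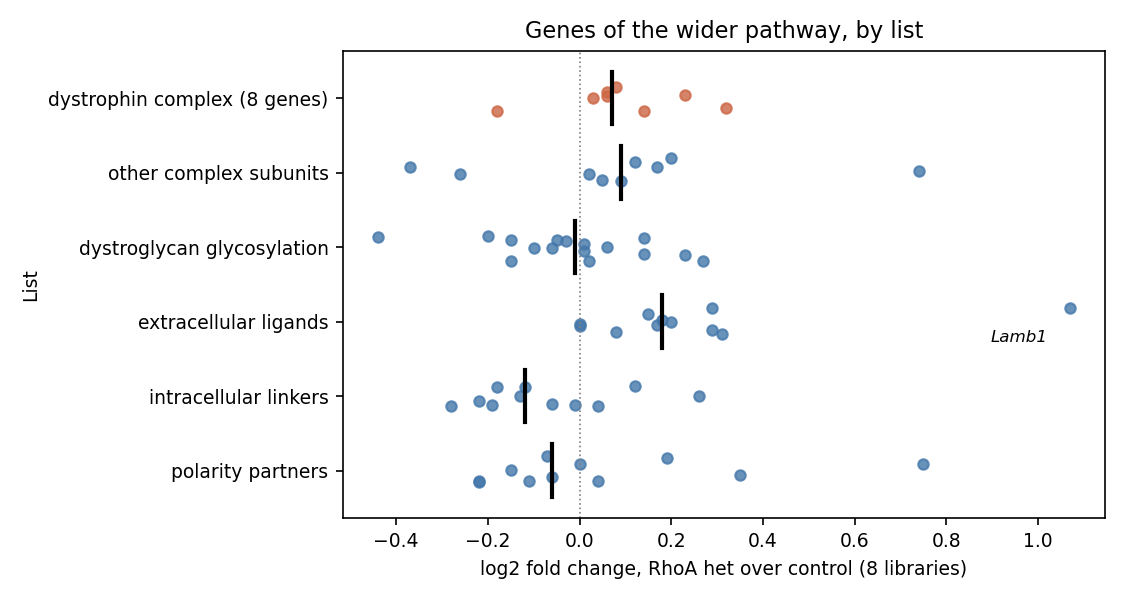
Log2 fold change over 8 libraries for each tested gene of the dystrophin complex (orange) and of 5 lists around it (blue); black bars are list medians, and vertical scatter has no meaning. Lamb1 at 1.07 lies farthest from 0, and list medians run from -0.12 to 0.18.

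Intracellular linkers and polarity partners likewise held 0 genes past the threshold. Of 11 linkers tested (12 listed), 3 were above 0 (4 with total counts, 1 with the block) and 8 below, with a median of -0.12. Ank2, an ankyrin that carries the complex to the membrane, had 0.26 and Dst, a spectrin-family crosslinker, 0.12 (p 0.175 and 0.475 in edgeR). Des, the muscle intermediate filament, had -0.22 and Actb, cytoplasmic actin, -0.18 (p 0.274 and 0.325 in edgeR). Of 11 polarity partners tested (12 listed), 5 were above 0 and 6 below, with a median of -0.06. Mark2 had 9.09, 13.5, 12.6 and 11.9 TPM in control and 14.4, 14.8, 13.5 and 13.6 TPM in RhoA het, a log2 fold change of 0.19 (SE 0.11, p 0.111 in edgeR). On the CPM scale its groups did not overlap (exact permutation p 0.0286, the smallest possible), as in 1.02% of all genes with higher values in RhoA het; with the replicate block it had 0.08 (p 0.529 in edgeR). Pard3, its partner in stem cell polarity, had 4.14 ± 0.602 and 4.52 ± 0.301 TPM, a log2 fold change of 0.04. Prkcz, an atypical protein kinase C, was at 0.0648 to 0.649 TPM with 0.75 (p 0.2 in edgeR), and Pard6a and Pard6g, its adaptors, both had -0.22 (p 0.515 and 0.589).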

How the data were processed

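RNA of freshly isolated muscle stem cells was sequenced in 8 libraries. The deposited counts were made with featureCounts 1.6.4 over exons summed by gene of GENCODE mouse release 34 on mm39, per the file headers, in paired-end mode without a strand option. STAR, cutadapt, FastQC and DESeq2 are named in the submitters' processing notes. The deposited TPM values equalled counts scaled by exon length and library when recomputed (largest relative difference 5e-15). The header named 10 alignment files; the 8 in the table were analysed. Symbols came from GENCODE release 21 identifiers (51884 of 57180 matched).

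Genes were filtered with filterByExpr, scaled by TMM and tested with the quasi-likelihood F test of edgeR 4.0.16 (R 4.3.3), without covariates, with Benjamini-Hochberg adjustment over 15660 genes; all 8 members passed the filter. Exact permutation tests used log2 CPM with a prior count of 2 over 70 assignments. By the titles, both groups have a replicate 5, 7 and 8; same-numbered deviations from the group means correlated at 0.544, 0.231 and 0.488, so the numbers were taken to pair the libraries in a second fit. Genes named beside the members are, per list and direction, up to 2 with the smallest p and, per member, the 3 most alike by Pearson's r, plus Rhoa, and relatives and markers given as levels or checks; some genes that this rule names are not reported here. The members and lists were chosen with earlier results of these data known. Alternatives covered scaling, filters, DESeq2 1.42.0, limma 3.58.1, pairing, chromosome Y reads as a covariate and left-out libraries.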

Additional observations from a re-analysis of the deposited data

How the results depend on the processing

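No alternative called a member: 0 of 8 passed an adjusted p of 0.05 in each of 23 alternatives (lowest adjusted p 0.759). The number of genes called in all was 0 in 21 of them, each left-out library included (range 0 to 0), 2 with the replicate block and 139 with the block and no filter on low counts; the cause was not tested. Of 184 alternative fold changes of members, 155 kept their sign and 29 did not, all of them small against their errors. The replicate block gave -0.07 for Dmd, -0.06 for Sgcb, -0.10 for Sgcd and -0.02 for Sspn, and the same 6 libraries without pairing gave -0.07, -0.06, -0.06 and -0.01 (exact permutation p over 6 libraries 0.7 for Dmd and Sgcb, smallest possible 0.1). The block without the filter gave -0.06, -0.05, -0.09 and -0.01, and the number as a random effect 0 for Dmd and -0.04 for Sgcd. limma-voom with quality weights gave -0.24 for Sgcd and 0 for Dtna. Leaving out both libraries numbered 5, chosen after seeing the data, gave -0.02 for Dmd. Leaving out each library in turn gave -0.03 to 0.11 for Dmd, -0.19 to 0.44 for Dag1, -0.12 to 0.28 for Sgcb, -0.33 to 0.34 for Sgcd, 0.05 to 0.34 for Sspn and 0.02 to 0.56 for Dtna. The block changed no call of a member. Utrn and Sgca kept their sign in every alternative, at 0.04 to 0.21 and -0.37 to -0.03. Depth limits Sgcd, with 11 to 55 fragments per library.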
